A study of Mus musculus with 2 samples.

Results

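Fine cluster 5 was 1 of 12 groups into which the authors' deposited annotation divides CD8 T cells from lamina propria of the colon, the layer of tissue beneath the gut lining. Its members were the 743 of 8562 cells that carry the number 5 in the cluster column. The annotation gives the cluster no cell type name, and it is called cluster 5 here. The hosts were Rag1 knockout mice, which make no T or B cells of their own, aged 8 to 12 weeks at transfer. Every host received 100000 wildtype naive CD4 T cells (CD45RBhigh CD25-), which drive colitis in mice without lymphocytes, and 500000 splenic CD8 T cells. The CD8 T cells came from Bcl6fl/fl Cd8aCre donors, whose loxP-flanked Bcl6 gene can be cut by Cre made under Cd8a control, or from Bcl6fl/fl donors without Cre. Colons were taken 6 to 10 weeks after transfer. The annotation calls the groups Crep and Cren, read here as donors with and without Cre, although no source used here spells this out. Cells carried 8 hashtag antibodies, 4 for each group, and were pooled into 1 library for gene expression and 1 for hashtags. No source says that a hashtag stands for 1 mouse, so p-values measure only the spread between hashtags.

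CD8 T cells that have met antigen take up several states. Killer effector cells store granzymes and perforin, resident cells hold on to tissue through integrins and CD69, recirculating memory cells keep KLF2 and the exit receptor S1PR1, and stem-like cells keep the transcription factor TCF1, made from Tcf7, and can renew the other states. BCL6 is a transcriptional repressor known for guiding follicular helper and stem-like T cells. Stimulated T cells also switch on a short-lived wave of transcription factors and of feedback inhibitors, among them TNFAIP3 and the ZFP36 proteins, which shorten the life of inflammatory messenger RNAs.

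Cluster 5 held 214, 75, 84 and 110 cells in Cren hashtags 1 to 4, and 34, 86, 121 and 19 cells in Crep hashtags 1 to 4. These cells summed to between 55851 and 731162 unique molecular identifiers (UMIs, 1 per captured RNA molecule) in a hashtag, and a cell had a median of 2941 UMIs and 1307 genes. Values below are UMI counts scaled to a total of 1000000 (CPM) over a hashtag's summed cluster 5 cells. A UMI of Cd8a or Cd8b1, which encode the CD8 coreceptor, was seen in 693 of the 743 cells (93.3%). At least 1 of the annotation's hashtag classifiers did not give the annotated hashtag for 20 cells (2.69%), 11 of them in Crep hashtag 2. Among all 8562 cells the number was 115 (1.34%). No cell barcode was given more than once. Crep hashtag 4 had under 20 cluster 5 cells and entered no test across genes, and its values are given beside the others. At a coarser resolution of the same annotation 633 cluster 5 cells (85.2%) lay in coarse cluster 2.

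The genes that led cluster 5 came from several families, and killer, exhaustion and chemokine genes were low in it. Clusters were drawn from the same genes, so these levels describe the cluster and carry no test. Means are over the 7 hashtags with at least 20 cluster 5 cells, and genes were ranked by the ratio of mean CPM among genes seen in at least 5% of cells. Nsg2, a gene of endosomal trafficking, led with 18.7 ± 11.6 CPM against 2.13 ± 2.18 CPM in all other cells, a ratio of 8.76. Ggt1, a surface enzyme of glutathione breakdown, had 42.8 ± 23.2 CPM against 6.27 ± 3.68 CPM, a ratio of 6.83. Tsc22d1, which encodes a leucine zipper protein, had a ratio of 6.64, at 28.1 against 4.23 CPM. Each of these genes was seen in a minority of the cells, from 5.52% for Nsg2 to 14.9% for Tnfrsf25. Tnfrsf25, a death receptor family member that costimulates T cells, had 50 ± 33.2 CPM against 8.42 ± 4.73 CPM (5.94 times), higher in 6 of 7 hashtags. Tnfsf8, the ligand of CD30, had 54.2 against 13.5 CPM (4.02 times), and cluster 11 had 53.1 CPM over its summed cells. Cd79b, better known as a chain of the B cell receptor, had 42.8 against 8.7 CPM (4.91 times).

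The leading gene with the most UMIs was Ifitm1 (chr7:140967221-140969825 on GRCm38, plus strand), which encodes an interferon-induced membrane protein that limits virus entry. It had 1181 ± 871 CPM against 209.7 ± 132 CPM (5.63 times), with its neighbours Ifitm3 at 115 against 35 CPM (3.27 times) and Ifitm2 at 344 against 116 CPM (2.97 times). Of the other clusters, cluster 6 had the most Ifitm1 (508 CPM over its summed cells) and cluster 0 followed (450.3 CPM), while cluster 0 had the most Ifitm2 (269.97 CPM, against 366 CPM in cluster 5) and Ifitm3 (76.4 against 113 CPM). The 3 genes are close paralogs, and how the counting treated reads they share is not given in the sources used here. S1pr1, which lets lymphocytes leave tissue, had 196 ± 23.2 CPM against 67.6 ± 31.5 CPM (2.9 times) and was the most even of the 20 across hashtags, seen in 43.2% of cluster 5 cells and 15.8% of the others. Cluster 6 had nearly as much S1pr1, at 187 CPM over its summed cells. Id3, a repressor of E proteins linked to memory, had 46.6 against 18.8 CPM (2.48 times), and cluster 0 came near it at 41.6 CPM. The other genes among the first 20 were Aff3 (3.67 times), Cpm (3.38), Tmem176b (3.13), Nebl (3.12), Actn1 (2.78), Gm48236 (2.69), 1500009L16Rik (2.68), Cdc25b (2.52) and Serp2 (2.47). Over summed cells, Serp2 (142 CPM) and Cdc25b (50.9 CPM) were higher in cluster 8 than in cluster 5, and Nebl (86.4 CPM) in cluster 9.

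Among the genes low in cluster 5, Setbp1 was 8.18 times and Gm32772 7.91 times lower than in the other cells. Xcl1, a chemokine that draws cross-presenting dendritic cells, had 15.9 ± 12.7 CPM against 103 ± 58.5 CPM, 6.47 times lower. Klrg1, an inhibitory receptor of effector cells, had 30.1 ± 18.1 CPM against 175 ± 87.4 CPM, 5.8 times lower, and Eomes, a transcription factor of cytotoxic and memory cells, had 11.9 against 57.4 CPM, 4.82 times lower. These genes were lower in each of the 7 hashtags. The inflammatory chemokines Ccl3 (4.15 times lower) and Ccl4 (546 against 1750.1 CPM, 3.2 times lower), the inhibitory receptor gene Havcr2 (3.89 times lower) and Tox, a regulator of exhaustion (3.04 times lower), followed. Crim1 (4.26), Apol7b (4.16), Ier5l (3.82), Asb2 (3.62), Ckb (3.33) and Samd3 (3.06) completed the first 15.

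**Figure D1:**
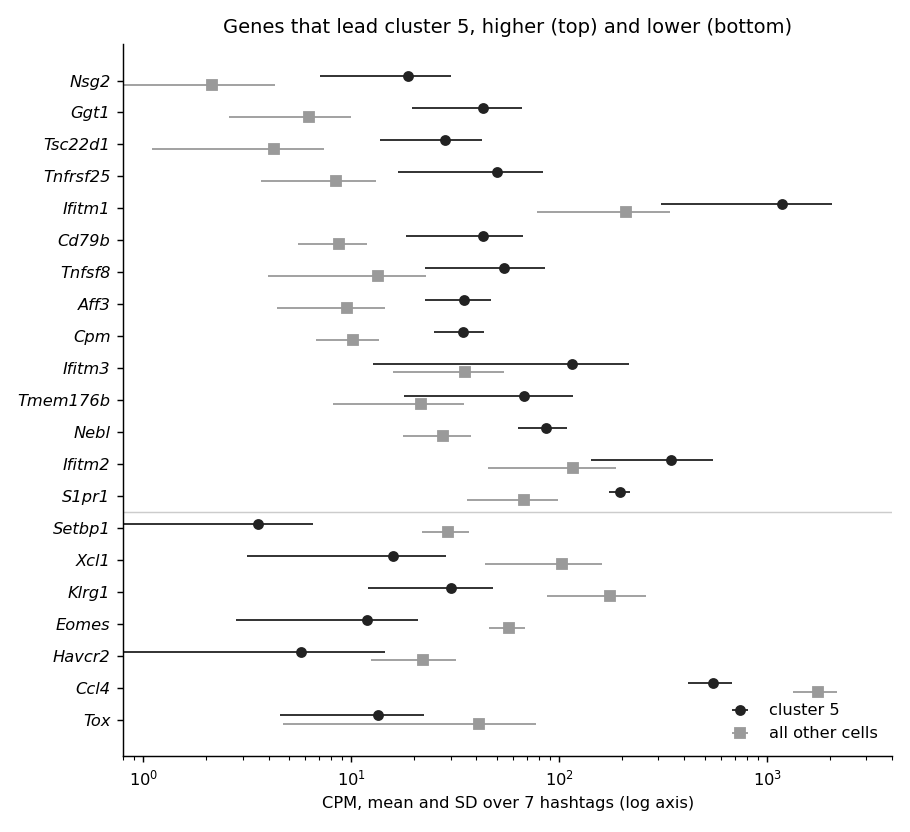
Leading genes of cluster 5. Points are the mean and bars the SD of CPM over 7 hashtags, on a log axis, in cluster 5 and in all other cells, for 14 genes higher and 7 genes lower in cluster 5. Ifitm1 has the highest mean of the higher genes and a wide SD (871 CPM), while S1pr1 has a narrow one (23.2 CPM).

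Across the 12798 genes of the table, mean expression in cluster 5 was most like that of cluster 1 (Pearson's r across genes 0.986, a description over genes of the same pooled library). Cluster 6 followed closely, at 0.985. Cluster 1 was the larger of clusters 1 and 5, with 1186 cells. Compared with it, cluster 5 had more Gm48236 (10.1 times), Tmem176b (9.28), Tmem176a (7.15), Ifitm1 (8.61, 1181 against 137 CPM), Ifitm2 (5.34), Tnfrsf25 (7.72), Cd79b (7.42), Tsc22d1 (6.53) and Ggt1 (6.12). Ahr, the aryl hydrocarbon receptor that senses dietary and microbial ligands in the gut, had 68 ± 25.6 CPM against 12.6 ± 6.63 CPM (5.41 times). Itgae, the integrin chain CD103 that binds gut epithelium, had 146 ± 44.9 CPM in cluster 5 and 33.9 CPM in cluster 1 (4.3 times), yet stood at 1.02 times the level of all other cells together. Gzmk, a granzyme of memory-like effectors, was 3.07 times lower in cluster 5 (254 against 778 CPM), and Eomes was 6.18 times lower. Setbp1 (6.85 times lower), Gm15987 (5.61), Crim1 (4.84), Samd3 (4.79), the thromboxane receptor gene Tbxa2r (3.67), Ccl3 (3.33), Ifngas1 (3.27) and Klrg1 (3.25) were lower too.

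Marker lists placed cluster 5 on the memory side without settling on a state. A gene was counted as detected when at least 5% of cells had a UMI of it, and as raised or reduced past a ratio of 1.5 to all other cells. By these bounds 163 of 6233 detected genes were raised and 251 reduced, with a median ratio of 0.987. Of 15 detected stem-like genes 5 were raised and 2 reduced (median ratio 1.24), with Tcf7 at 2.03 times (219.7 ± 62.6 CPM), the SLAM receptor gene Slamf6 at 2.08 times, Id3 at 2.48 times and the repressor gene Bach2 at 1.56 times. Of 11 detected recirculation genes 3 were raised and 1 reduced (median ratio 1.27), with Klf2 at 2.12 times (1853 ± 366 CPM), S1pr1 at 2.9 times and the sphingosine receptor gene S1pr4 at 1.66 times. The markers of both states were thus raised, so neither name was given. Compared with cluster 1, 1 stem-like gene was raised and 2 were reduced (median ratio 1.06), with Tcf7 at 1.42 times, and 4 recirculation genes were raised and 1 was reduced (median ratio 1.10).

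Effector and exhaustion genes were reduced relative to all other cells. None of 22 detected cytotoxic genes was raised and 11 were reduced (median ratio 0.662), among them Gzmb (753 ± 353 CPM, 0.381 times) and Prf1, the pore-forming perforin (0.576 times). None of 12 detected genes of an exhaustion and inhibitory receptor list was raised and 8 were reduced (median ratio 0.555), among them Lag3 (0.469 times) and the ectonucleotidase gene Entpd1 (0.388 times). Of 15 detected residency genes 1 was raised and 4 were reduced, with Cd69 at 1.28 times and the collagen-binding integrin gene Itga1 at 0.610 times. Compared with cluster 1, 1 cytotoxic gene was raised and 6 were reduced (median ratio 0.783). Of the exhaustion and inhibitory receptor list 2 genes were raised and 1 was reduced in that comparison (median ratio 0.881). The 2 were Icos (2.0 times), which encodes a costimulatory receptor, and Pdcd1 (1.59 times). Compared with the same cluster, 7 of 20 detected early response genes were raised and none was reduced, with Nr4a1 at 2.89 times and Nfkbia at 2.73 times. In the same comparison 9 of 17 detected S100, annexin and galectin genes were raised and none was reduced, against 396 raised and 220 reduced of all 6233 genes. Relative to all other cells, none of the 20 early response genes was raised and 1 was reduced (median ratio 1.02). Of the 17 S100, annexin and galectin genes 3 were raised and 1 was reduced relative to those cells (median ratio 1.25).

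Defining markers of CD4, γδ T and antibody-making cells were rare in cluster 5, whereas Cd79b and Lyz2 were not. Cd4 gave 6 UMIs in 5 cells, and the regulatory T cell factor gene Foxp3 gave 11 UMIs in 3 cells, all in Cren hashtag 1. The γδ T cell receptor gene Trdc gave 1 UMI, and Igkc, the immunoglobulin light chain gene, gave 0. Cd79b was seen in 83 cells (11.2%), so it was found without the immunoglobulin gene. Lyz2, the lysozyme gene of macrophages, gave 118 UMIs in 92 cells (12.4%). Summed levels overlapped between the groups for 6 CD4 T cell genes (20.7 to 62.9 CPM in Cren and 19 to 38.1 CPM in Crep), 15 measured myeloid genes (448 to 527 and 396 to 522 CPM), 6 γδ T cell genes (34.9 to 120.3 and 105 to 149.6 CPM), 4 B cell genes (33.2 to 107 and 38.1 to 65.7 CPM) and 5 epithelial and stromal genes (1773 to 2825 and 2418 to 3758 CPM). Of the 6564 UMIs of the epithelial and stromal list, 6496 were of Vim, the vimentin gene, which T cells also express. The sums did not overlap for 9 natural killer and innate lymphoid cell genes, at 1078.5 to 1520 CPM in Cren and 904 to 1049 CPM in Crep. Of the 2746 UMIs of that list 2571 were of Il7r, the interleukin 7 receptor gene that memory T cells also express, and Il7r did not pass (log2 difference, Crep minus Cren, -0.28, adjusted p = 0.323 with edgeR). The part of these sums in the group differences was not tested.

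Ifitm1 was unevenly spread over the cells of cluster 5. It gave 2786 UMIs, of which the 91 cells with at least 10 UMIs held 83.6%, up to 131 in 1 cell, whereas 525 of the 743 cells had none. The 218 cells with any had a median of 7. Ifitm2 was seen in 64.7% of the 218 cells with an Ifitm1 UMI and in 19.4% of the others, and Ifitm3 in 33.0% and 5.90%, at median depths of 3108 and 2880 UMIs. With each cell thinned to 2000 UMIs, which left out 128 cells with fewer, Ifitm1 was seen in 23.1%, 6.15%, 26.1% and 10.3% of cluster 5 cells in Cren hashtags 1 to 4, and in 48.0%, 46.5%, 49.0% and 50% in Crep hashtags 1 to 4. The 4 Crep shares lay close together and above all 4 Cren shares. Without thinning the shares were 24.8%, 6.67%, 25.0% and 12.7% in Cren and 47.1%, 44.2%, 50.4% and 52.6% in Crep. In cluster 1 the thinned shares ran from 2.56% to 12.5% and outside cluster 5 from 3.14% to 12.6%, where the groups overlapped. Summed over cells, Ifitm1 stood at 957, 203, 576 and 395 CPM in Cren hashtags 1 to 4 and 1837, 1788 and 2508 CPM in Crep hashtags 1 to 3, with 2739 CPM in Crep hashtag 4, but its log2 difference of 1.86 (SE 0.48, adjusted p = 0.240) did not pass the test across genes. The share was looked at after its values were seen and was not tested.

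**Figure D2:**
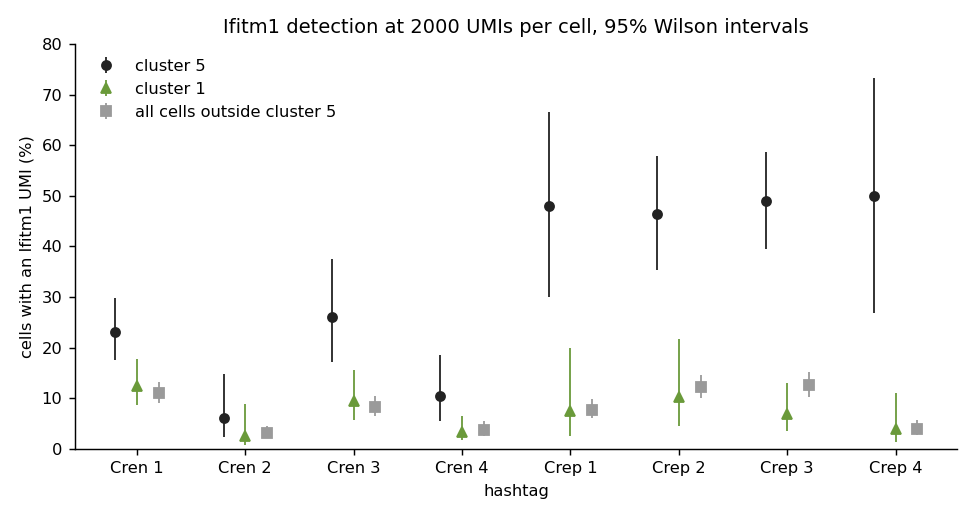
Percent of cells with at least 1 Ifitm1 UMI after thinning every cell to 2000 UMIs, by hashtag, in cluster 5, in cluster 1 and in all cells outside cluster 5. Bars are 95% Wilson intervals, which cover counting error only. In cluster 5 the Crep hashtags lie between 46.5% and 50% and the Cren hashtags between 6.15% and 26.1%.

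The comparison of Crep with Cren within cluster 5 asks how CD8 T cells from Cre donors differed in this state. Positive log2 differences mean a higher level in Crep, for the groups as labelled. Of 4044 genes tested with edgeR's quasi-likelihood test, 48 (1.19%) passed an adjusted p of 0.05, 21 higher (0.519%) and 27 lower (0.668%) in Crep, with a median log2 difference of -0.01 over all genes. Genes that rose included the receptor gene Klrc1, the granzyme gene Gzmk, the integrin gene Itga1 and the galectin gene Lgals3, and 7 of the 27 that fell belong to a list of early response genes. Of the 48 genes, 20 were named by the size of their difference at an average log2 CPM of at least 5. The others were named from the gene lists or, as Lgals3, Klrc1 and Tnfaip3, after their values were seen. Without Crep hashtag 3 the test called 20 genes, without Crep hashtag 2 it called 25, and without Cren hashtag 3 it called 115.

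Among surface and secreted effector proteins, Klrc1 (chr6:129666015-129678973 on GRCm38, minus strand), which encodes the inhibitory receptor NKG2A, stood at 275, 241, 366 and 285 CPM in Cren hashtags 1 to 4 and 571, 405 and 656 CPM in Crep hashtags 1 to 3. The groups did not overlap, Crep hashtag 4 had 769.9 CPM, and the log2 difference was 0.89 (SE 0.15, adjusted p = 0.000225). Gzmk stood at 118, 166, 251 and 192 CPM in Cren hashtags 1 to 4 and 381, 317 and 352 CPM in Crep hashtags 1 to 3, with 269 CPM in Crep hashtag 4. Every Crep hashtag lay above every Cren hashtag, and the log2 difference was 0.99 (SE 0.18, adjusted p = 0.00115). Gzma and Gzmb, the other major granzymes of the data, had every tested Crep hashtag above every Cren hashtag, yet did not pass, at 2.18 (adjusted p = 0.190) and 0.94 (adjusted p = 0.509). Fgl2, which encodes a secreted immunosuppressive protein of T cells, rose by 0.87 (adjusted p = 0.0319). It passed in 9 of 18 alternative settings of the test.

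Adhesion and migration genes that rose were Itga1, Cxcr6 and Jaml. Itga1, the chain of the collagen receptor CD49a, stood at 39.7, 49.8, 32.9 and 37.8 CPM in Cren hashtags 1 to 4 and 85.7, 113 and 89.5 CPM in Crep hashtags 1 to 3. The tested groups did not overlap, at 1.27 (SE 0.27, adjusted p = 0.00249), but Crep hashtag 4 had 17.9 CPM, the value of 1 UMI, below all of them. Cxcr6, a chemokine receptor of resident T cells, had 321 ± 28.4 CPM in Cren (SD, n = 4) and 482 ± 21.6 CPM in Crep (SD, n = 3) and rose by 0.60 (SE 0.13, adjusted p = 0.00611). Jaml, an adhesion molecule that binds epithelial cells, rose by 0.83 (adjusted p = 0.0319), with overlapping groups. It passed in 9 of 18 alternative settings of the test. Itgae (-0.22, adjusted p = 0.817) and Cd69 (-0.31, adjusted p = 0.571), the genes of the usual residency markers, did not pass.

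Lgals3, which encodes the sugar-binding protein galectin-3, stood at 688, 606, 830.4 and 610.3 CPM in Cren hashtags 1 to 4 and 971, 1248 and 1342 CPM in Crep hashtags 1 to 3, with 1235 CPM in Crep hashtag 4. All Crep hashtags lay above all Cren hashtags, and the log2 difference was 0.81 (SE 0.12, adjusted p = 3.1e-05). S100a4, a calcium-binding protein of motile cells, stood at 424, 282, 391 and 256 CPM in Cren hashtags 1 to 4 and 809, 708 and 572 CPM in Crep hashtags 1 to 3, with 501 CPM in Crep hashtag 4. It too did not overlap between the groups, at 0.96 (SE 0.15, adjusted p = 0.000213). S100a10, a partner of annexin A2, rose by 0.42 (adjusted p = 0.0177) and Ahnak, a large scaffold protein, by 0.69 (adjusted p = 0.00594). Capg, an actin-capping protein, had a large difference of 1.58 that missed the threshold (adjusted p = 0.0733).

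Other genes that rose serve lysosomes, oxidant production, protein breakdown and membranes. Ctsd, the lysosomal protease cathepsin D, had 243 ± 62.3 CPM in Cren (SD, n = 4) and 443 ± 43.9 CPM in Crep (SD, n = 3), a log2 difference of 0.89 (SE 0.15, adjusted p = 0.000225). Cyba, a subunit of the phagocyte NADPH oxidase that is also made in T cells, had 678 ± 103 CPM in Cren (SD, n = 4) and 1045 ± 24.7 CPM in Crep (SD, n = 3), a log2 difference of 0.61 (SE 0.12, adjusted p = 0.00115). Psmb8, a subunit of the immunoproteasome, rose by 0.46 (adjusted p = 0.0112) and Ech1, an enzyme of fatty acid oxidation, by 0.70 (adjusted p = 0.00971). The largest rises were in low genes: Tmem163, a zinc transporter gene (1.61), AA467197 (1.57), Myadm (1.46), Rcn3, a calcium-binding protein of the secretory pathway (1.37) and 1500009L16Rik (1.30), with adjusted p from 0.00249 to 0.0350 and no Crep mean above 113 CPM. Plac8 (0.93) and Plp2 (0.88) passed as well.

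The genes that fell included inhibitors of NF-κB, a family of transcription factors that drives inflammation. Tnfaip3, which encodes A20, a ubiquitin-editing brake on NF-κB, stood at 855, 1116, 896 and 1046 CPM in Cren hashtags 1 to 4 and 599.8, 628 and 548 CPM in Crep hashtags 1 to 3, with 627 CPM in Crep hashtag 4. All Crep hashtags lay below all Cren hashtags, and the log2 difference was -0.75 (SE 0.13, adjusted p = 0.000213). Nfkbia, which encodes the inhibitor IκBα, had 961 ± 238 CPM in Cren (SD, n = 4) and 490.4 ± 109 CPM in Crep (SD, n = 3) and fell by 0.92 on the log2 scale (adjusted p = 0.0319). Its highest value, 1315 CPM, was that of Cren hashtag 2. Of 18 alternative settings of the test, Tnfaip3 passed in 18 and Nfkbia in 12. Nfkbia lost its call, among others, with Crep hashtag 4 included and without Crep hashtag 2.

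The 3 measured genes of the ZFP36 family, whose proteins bind AU-rich elements and speed the decay of messenger RNA, fell together. Zfp36l1 stood at 361, 494, 460.4 and 433 CPM in Cren hashtags 1 to 4 and 238, 229.8 and 249 CPM in Crep hashtags 1 to 3, a log2 difference of -0.86 (SE 0.15, adjusted p = 0.000225). Zfp36l2 stood at 1034, 1203, 872 and 1075 CPM in Cren hashtags 1 to 4 and 743, 668 and 618 CPM in Crep hashtags 1 to 3, a log2 difference of -0.67 (SE 0.12, adjusted p = 0.000356). For both genes the tested groups did not overlap. Crep hashtag 4 departed from the other Crep hashtags, with 376 CPM of Zfp36l1, inside the Cren range, and 1343 CPM of Zfp36l2, above every Cren hashtag. When it was included, Zfp36l2 no longer passed (log2 difference -0.47, adjusted p = 0.470). Zfp36 itself, which encodes tristetraprolin, had 694 ± 122 CPM in Cren (SD, n = 4) and 428 ± 72.2 CPM in Crep (SD, n = 3), a log2 difference of -0.75 (SE 0.14, adjusted p = 0.00113).

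Some transcription factor genes and 1 phosphatase gene of the early response also fell. Csrnp1, a nuclear protein gene switched on by growth signals, stood at 91.6, 120.3, 115 and 134 CPM in Cren hashtags 1 to 4 and 38.1, 36.5 and 38 CPM in Crep hashtags 1 to 3, a log2 difference of -1.58 (SE 0.28, adjusted p = 0.000225). Crep hashtag 4, at 53.7 CPM, was also below all Cren hashtags. Nr4a1, which encodes NUR77, an orphan receptor induced by T cell receptor signals, had 426 ± 109 CPM in Cren (SD, n = 4) and 216 ± 68.2 CPM in Crep (SD, n = 3) and fell by 1.08 (adjusted p = 0.00697), while Crep hashtag 4 had 501 CPM, inside the Cren range. Junb, an AP-1 subunit, fell by 0.52 (adjusted p = 0.0203) and Dusp1, a phosphatase that shuts off MAP kinases, by 0.63 (adjusted p = 0.00737). Of the 18 alternative settings, Nr4a1 passed in 11, Junb in 10 and Dusp1 in 15. Tgif1, a homeobox repressor that dampens TGF-β signals, fell by 1.29 (SE 0.25, adjusted p = 0.00115) and Ubald2 by 0.83 (SE 0.15, adjusted p = 0.000281). Fos (-0.02) and Jun (-0.05), the best known members of the early response, did not pass, with adjusted p of 0.993 and 0.939, nor did the phosphatase gene Dusp2 (-0.12, adjusted p = 0.871).

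**Figure D3:**
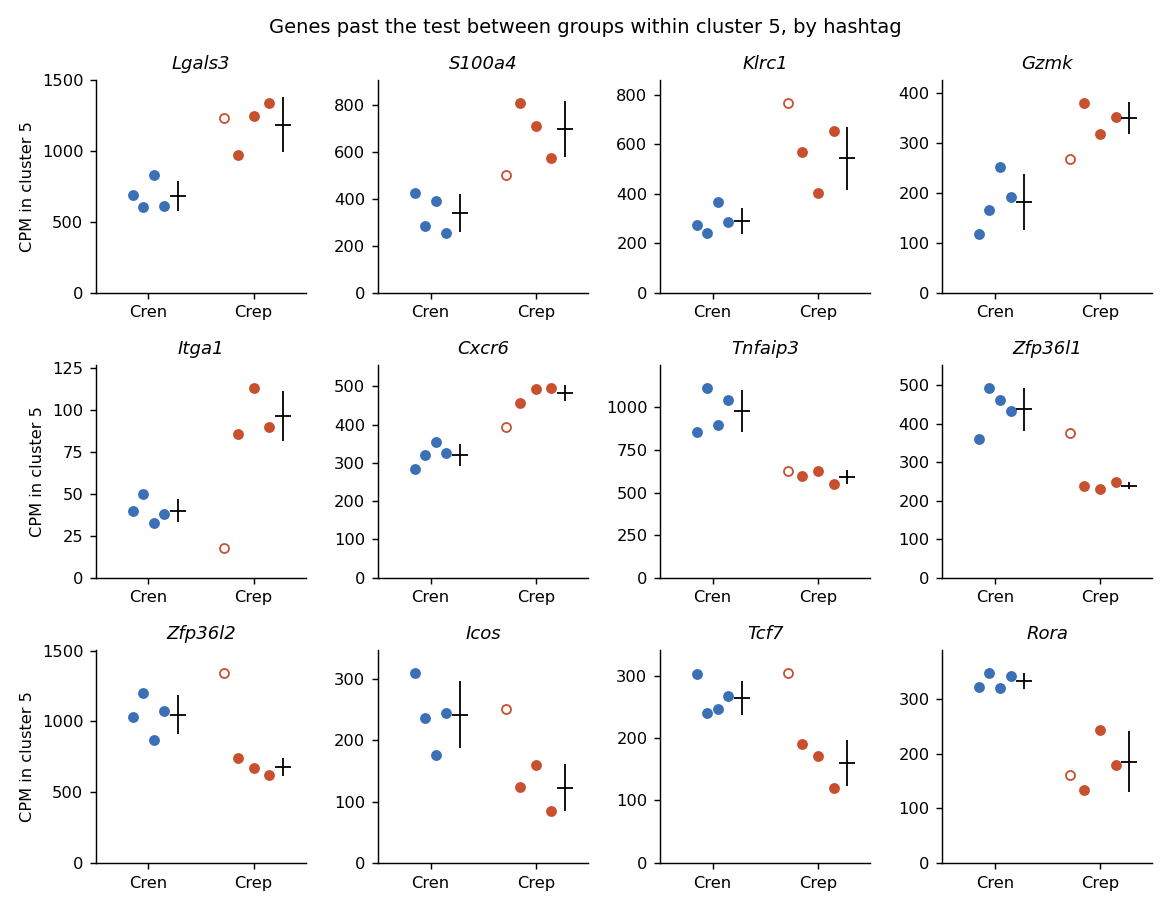
CPM of 12 genes in cluster 5 by hashtag, in Cren and Crep. Filled points are the 7 hashtags in the test, open points are Crep hashtag 4 with 19 cells, and the dash and bar are the mean and SD of the tested hashtags. Filled points of Tnfaip3 do not overlap between groups, and the open point of Zfp36l2 (1343 CPM) lies above all others of that gene.

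Tcf7, Icos, Rora and Ahr also fell. Tcf7 stood at 302, 241, 247 and 267 CPM in Cren hashtags 1 to 4 and 190.4, 171 and 119 CPM in Crep hashtags 1 to 3, a log2 difference of -0.85 (SE 0.18, adjusted p = 0.00248). The tested groups did not overlap, but Crep hashtag 4 had 304 CPM, above every Cren hashtag. Icos, a costimulatory receptor of helper T cells, stood at 310.5, 236, 177 and 244 CPM in Cren hashtags 1 to 4 and 124, 161 and 84 CPM in Crep hashtags 1 to 3, with 251 CPM in Crep hashtag 4, and differed by -1.09 (SE 0.21, adjusted p = 0.00211). Rora, a nuclear receptor of type 17 and innate-like cells, had 334 ± 14 CPM in Cren (SD, n = 4) and 186 ± 55.9 CPM in Crep (SD, n = 3) and fell by 0.79 (adjusted p = 0.00210). Ahr had 87.8 ± 4.24 CPM in Cren (SD, n = 4) and 41.6 ± 10.2 CPM in Crep (SD, n = 3) and fell by 1.19 (adjusted p = 0.0112). Icos (adjusted p = 0.102), Rora (0.0649) and Tcf7 (0.212) lost their calls without Crep hashtag 3, which had the lowest Icos and Tcf7 values. Ahr lost its call there too (-0.91, adjusted p = 0.371), with DESeq2 (-1.15, adjusted p = 0.196), with the replicate number as a block (-1.11, adjusted p = 0.0679) and without cells that had an Ifitm1 UMI (-0.92, adjusted p = 0.269).

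Trat1, Orai1 and Tnfrsf25 fell. None of 20 tested genes of a T cell receptor signalling list passed in either direction (median log2 difference -0.06), against 1.19% of all genes. At that share, no call among 20 genes says little about the list. Trat1 is an adaptor that stabilises the T cell receptor (-1.32, adjusted p = 0.00253), Orai1 the pore of the store-operated calcium channel (-1.15, adjusted p = 0.00808) and Tnfrsf25 a leading gene of the cluster (-1.44, adjusted p = 0.0197). Tnfrsf25 had 0 CPM in Crep hashtag 1, which allows up to 3 UMIs of 105040 by counting error, and 29.8 and 32.8 CPM in the other tested Crep hashtags. Because a leading gene differed between the groups, the share of cells in cluster 5, from 6.79% to 16.4% in Cren and from 1.82% to 12.1% in Crep, is not compared. Uri1 (-1.78), Gpr146 (-1.63), Lysmd2 (-1.0) and the noncoding gene 1700003C15Rik (-3.15) had large differences at low levels. Odc1, the first enzyme of polyamine synthesis (-0.94), Vps37b (-0.72), Pnrc1 (-0.53), Gramd3 (-0.53) and the ribosomal gene Rps26 (-0.44) passed too.

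The regions before 4 of the genes that fell are shown because motifs of stimulation-induced factors lay in them. Sequences are from RefSeq on GRCm38.p6, the patched form of the mm10 build, on the minus strand and written 5′ to 3′, and hold the part of the 250 bases before the annotated start that overlaps no annotated exon. Tnfaip3 is at chr10:19015411-19015547, Nfkbia at chr12:55492648-55492897, Zfp36l1 at chr12:80113014-80113263 and Dusp1 at chr17:26508520-26508722. Capitals mark TGANTCA, the AP-1 motif, in Tnfaip3 (bases 2 to 8) and Zfp36l1 (bases 122 to 128), GGG, any 2 bases and TTTCC, an NF-κB motif, found on the opposite strand in Tnfaip3 (bases 126 to 135) and Nfkbia (bases 222 to 231), and TGACGTCA, the cAMP response element, in Dusp1 (bases 108 to 115).
Tnfaip3: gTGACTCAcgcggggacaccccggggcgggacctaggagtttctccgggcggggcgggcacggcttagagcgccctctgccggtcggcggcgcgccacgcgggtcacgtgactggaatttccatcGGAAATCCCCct
Nfkbia: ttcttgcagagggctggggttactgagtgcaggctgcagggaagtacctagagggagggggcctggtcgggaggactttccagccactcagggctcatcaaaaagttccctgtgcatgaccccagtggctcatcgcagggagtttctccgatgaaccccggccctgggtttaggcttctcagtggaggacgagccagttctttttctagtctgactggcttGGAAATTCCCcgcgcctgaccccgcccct
Zfp36l1: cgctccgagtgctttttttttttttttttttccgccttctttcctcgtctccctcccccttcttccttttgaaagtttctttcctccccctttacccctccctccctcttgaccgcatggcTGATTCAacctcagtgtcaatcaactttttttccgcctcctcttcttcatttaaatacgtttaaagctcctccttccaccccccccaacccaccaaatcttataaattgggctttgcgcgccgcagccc
Dusp1: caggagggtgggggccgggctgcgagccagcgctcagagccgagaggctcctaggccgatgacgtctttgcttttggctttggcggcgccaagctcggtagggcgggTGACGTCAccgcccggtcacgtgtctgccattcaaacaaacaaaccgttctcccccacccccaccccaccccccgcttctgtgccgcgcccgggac
Both strands of the 250 bases before each annotated start were searched, untrimmed. Promoters were in the table for 21 of the 27 lower genes, with 33 promoters, and for 19 of the 21 higher genes, with 23. TGANTCA was in 9.09% of the lower and 8.70% of the higher genes' promoters and in 6.75% of all 32851 promoters searched over the same 250 bases. The NF-κB motif was in 9.09% and 8.70%, against 1.41% of all, which was 3 promoters of Nfkbia, Tnfaip3 and Tnfrsf25 and 2 promoters of Myadm alone. TGACGTCA was in 3.03% and none, against 1.55%. GAAA, any 2 bases and GAAA, the interferon-stimulated response element, was in 3.03% and 8.70%, against 2.98%. The shares in the promoters of lower and higher genes were close for TGANTCA and the NF-κB motif, and a match describes these letters only.

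By list, 7 of 20 tested early response genes were lower in Crep and none was higher, against 0.668% of all genes, and 19 of the 20 differences were negative (median log2 difference -0.40, against -0.01 over all genes). The 7 were Junb, Nr4a1, Dusp1, Zfp36, Zfp36l1, Zfp36l2 and Nfkbia. Outside cluster 5 the same list had a median of -0.07 with 1 of 23 genes lower, and the difference between these medians was not tested. The count within cluster 5 was 2 without Crep hashtag 2, where 17 of 20 differences were negative (median -0.41), and 3 without cells that had an Ifitm1 UMI, where 18 of 18 were negative (median -0.36). Of 15 tested S100, annexin and galectin genes 4 were higher and none lower, against 0.519% of all genes, and all 15 differences were positive (median 0.42). The count was 2 without Cren hashtag 1, Crep hashtag 2 or Crep hashtag 3, 1 without cells that had an Ifitm1 UMI and up to 7 elsewhere, with medians from 0.28 to 0.49 over all alternatives. Outside the cluster that list had a median of 0.50 with no call.

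Beside each count that follows stand the shares over all tested genes, 0.519% higher and 0.668% lower in Crep. Of 20 tested genes of the cytotoxic list 2 were higher and none was lower, with a median of 0.50 and 17 positive differences. The 2 were Gzmk and Klrc1, which encodes an inhibitory receptor. The higher count was 8 with limma-voom, 7 without Cren hashtag 3, 5 with the replicate number as a block or no count filter, and 1 without cells that had an Ifitm1 UMI, where 1 gene was lower. Klrg1 (1.38, adjusted p = 0.142) and the perforin gene Prf1 (0.34, adjusted p = 0.795) did not pass. Of 12 tested residency genes 3 were higher, Itga1, Cxcr6 and Jaml, and 1 was lower, Ahr, with a median of -0.01. The higher count was 0 without Crep hashtag 2, and 1 with DESeq2, without Cren hashtag 1, without Crep hashtag 3 or without cells that had an Ifitm1 UMI. Of 12 tested stem-like genes 1 was lower, Tcf7, and 11 differences were negative, with a median of -0.61. The lower count was 4 without Cren hashtag 3, 3 with no count filter, 2 without Cren hashtag 2, and 0 with DESeq2, without Crep hashtag 3 or without cells that had an Ifitm1 UMI. Slamf6 (-1.11, adjusted p = 0.288), Id3 (-0.91, adjusted p = 0.252) and Satb1 (-0.71, adjusted p = 0.111) did not pass. No gene passed among 11 tested recirculation genes (median -0.08), 16 interferon response genes (median 0.11), 11 heat shock genes (median -0.30, all 11 negative), 22 respiratory chain genes (median 0.11) or 11 glycolysis genes (median 0.00). Of 16 tested genes reported as candidates for repression by BCL6, none was higher and 1 was lower, Rora. Their median was -0.02, with 8 positive and 8 negative differences. Outside cluster 5 the medians were 0.34 for cytotoxic, -0.14 for residency, -0.36 for stem-like and -0.41 for heat shock genes. How these medians differ from those within the cluster was not tested. The lists were counted, not tested as sets.

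**Figure D4:**
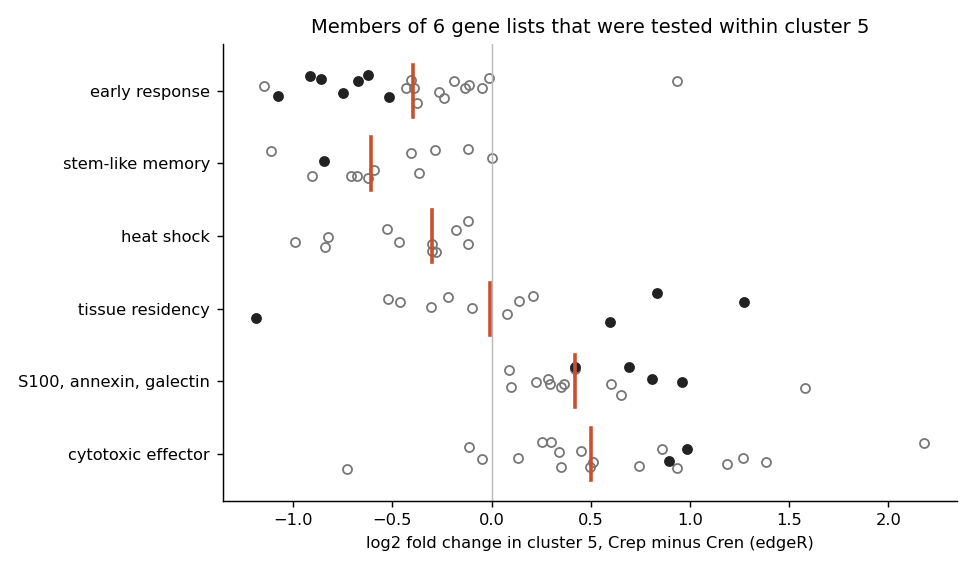
Log2 differences, Crep minus Cren, within cluster 5 for the tested members of 6 gene lists. Each point is a gene, filled where the adjusted p was under 0.05, and the vertical bar is the median of the list. Early response genes lie mostly below 0 (median -0.40) and S100, annexin and galectin genes all above 0 (median 0.42).

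Cells with an Ifitm1 UMI, whose share was higher in Crep, differed from the rest of the cluster in the direction of several group differences. Over the 6 hashtags with at least 10 cells of each kind, Lgals3 stood at 1251 ± 233 CPM in cells with an Ifitm1 UMI and 768 ± 271 CPM in cells without one and was higher in 6 of 6 hashtags. Klrc1 stood at 554 ± 164 CPM in cells with an Ifitm1 UMI and 348 ± 112 CPM in cells without one, higher in 6 of 6. Zfp36 stood at 352 ± 127 CPM in cells with an Ifitm1 UMI and 646 ± 193 CPM in cells without one, higher in 1 of 6, and Tnfaip3 at 566 ± 229 CPM in cells with an Ifitm1 UMI and 866 ± 239 CPM in cells without one, also higher in 1 of 6. Dusp1 (0.726 times) and Tnfrsf25 (0.511 times) were lower with Ifitm1 in all 6. S1pr1 was 1.3 times higher in all 6, whereas Psmb8 (0.998 times) and Itga1 (1.02 times) were close to even. Other genes went against their group difference. Jaml (0.857 times) and Capg (0.864 times), with positive differences in Crep, were each higher with Ifitm1 in only 2 of 6 hashtags.

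Without the cells that had an Ifitm1 UMI, 24 genes passed of 2882 tested, 9 higher and 15 lower. This setting took hashtags with at least 10 remaining cells. These were 161, 70, 63 and 96 cells in Cren hashtags 1 to 4 and 18, 48 and 60 in Crep hashtags 1 to 3. A larger share of cells was thus removed in Crep, and fewer counts were left for the test. Of the 48 genes 43 could be tested there, all 43 kept their sign and 20 passed. Lgals3 (log2 difference 0.72 there and 0.81 with all cells, adjusted p = 0.0594) lost its call, as did Gzmk (0.79 and 0.99, adjusted p = 0.0733), Zfp36 (-0.55 and -0.75, adjusted p = 0.400), Tcf7 (-0.77 and -0.85, adjusted p = 0.0970) and Dusp1 (-0.48 and -0.63, adjusted p = 0.223). Klrc1, S100a4, Ctsd, Cyba, Tnfaip3, Zfp36l1, Csrnp1, Ubald2 and Tgif1 passed there and under each of the other 17 alternatives, the only 9 of the 48 to do so. The part of these cells in the group differences was not tested further. The median ribosomal share of cluster 5 cells was 20.6 ± 0.210% in Crep (SD, n = 3) and 23.3 ± 2.24% in Cren (SD, n = 4), with a two-sided exact permutation p of 0.0571, the smallest that 3 against 4 hashtags allow. Median UMIs were 3059 ± 265 and 2943 ± 136 (exact p = 0.571) and the mitochondrial share 0.735 ± 0.0433% and 0.805 ± 0.0442% (exact p = 0.114), and the part of these values was not tested.

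Whether cluster 5 differed from other cells in its response was tested with an interaction between cluster and group, with the hashtag as a block. Against cluster 1, 4 of 4975 genes passed (0.0804%), and against all other cells 3 of 9128 (0.0329%). Klrc1 was 0.89 in cluster 5 and -0.03 in cluster 1, an interaction of 0.95 (edgeR adjusted p = 0.000568). Zfp36l2 was -0.67 in cluster 5, -0.03 in cluster 1 and 0.03 outside, interactions of -0.62 (adjusted p = 0.0262) and -0.68 (adjusted p = 0.000127). Tnfaip3 was -0.15 outside, an interaction of -0.59 (adjusted p = 0.00445), while its interaction of -0.49 against cluster 1 did not pass (adjusted p = 0.421). In this edgeR fit of 7 hashtags, the fall of both feedback genes was larger in cluster 5 than in all other cells. Crep hashtag 4, left out of the fit, had 1343 CPM of Zfp36l2, above every Cren hashtag. Bhlhe40, a stress-induced transcription factor, was -0.34 in cluster 5 and 0.42 in cluster 1, neither past the test, with an interaction of -0.77 (adjusted p = 0.0431). Cmss1 gave -0.34 (adjusted p = 0.0431) against cluster 1. Gzmb gave -0.48 (adjusted p = 0.0392) against all other cells, at 0.94 in cluster 5 and 1.46 outside it (adjusted p = 0.465), neither past the test.

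These interactions were few and depended on the method. With limma-voom 0 genes passed in either comparison, with 305 and 441 genes at an unadjusted p under 0.05, against 289 and 427 with edgeR. Leaving out Crep hashtag 3 left 0 genes against cluster 1, and leaving out Crep hashtag 1 left 1 gene, Zfp36l2, against all other cells. Of the 48 genes called within cluster 5, Klrc1 and Zfp36l2 passed the interaction against cluster 1, and Zfp36l2 and Tnfaip3 that against all other cells. Of the same 48, 43 were tested within cluster 1, where S100a4 passed, and 48 outside cluster 5, where 7 passed. Among all genes tested, 4 of 5565 passed within cluster 1 and 31 of 9701 outside cluster 5. Tcf7 fell by 0.99 outside as well (adjusted p = 0.00891), and its interaction was 0.17 (adjusted p = 1.000).

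Bcl6, the targeted gene, gave 41 UMIs in cluster 5, too few for the test. It stood at 16.4, 0, 20.6 and 8.72 CPM in Cren hashtags 1 to 4 and 28.6, 18.2 and 29.8 CPM in Crep hashtags 1 to 3, with 35.8 CPM in Crep hashtag 4, so the groups overlapped and the Crep values were not lower. Outside cluster 5 Bcl6 was higher in Crep by 0.80 (adjusted p = 0.0271). The assay counts the 5′ ends of transcripts per gene without regard to exons, so these counts do not show whether the flanked part was removed.

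T cell receptor segments differed between hashtags. Among cluster 5 cells with a single β chain V segment seen, Trbv19 was found in 3 of 119, 0 of 43, 0 of 58 and 4 of 60 cells in Cren hashtags 1 to 4, and in 7 of 18, 3 of 50, 30 of 70 and 1 of 12 cells in Crep hashtags 1 to 4. It was the top segment of Crep hashtag 1 (38.9%) and Crep hashtag 3 (42.9%), but not of Crep hashtags 2 (6.00%) and 4 (8.33%). Outside cluster 5 it was at 19.8%, 16.6%, 20.7% and 1.36% in Crep hashtags 1 to 4. The number of equally common β segments that would give the same diversity (inverse Simpson index) was 8.43 to 14.7 in Cren and 6.12, 13.8, 4.83 and 4.13 in Crep hashtags 1 to 4. Segments were read from UMIs of V genes, without the joining sequence, so clones were not resolved. With cells that had a Trbv19 UMI left out, 52 genes passed between the groups, and 41 of the 47 tested of the 48 genes were among them.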

How the data were processed

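Single-cell RNA-seq (10x Genomics 5′ v2 with feature barcoding, per the labels' protocols) gave 1 pooled gene expression library. The authors deposited raw UMI counts per gene and cell and, per the file headers, the percent of mitochondrial UMIs and the hashtag, group and cluster of each cell. The submitters' processing notes name Seurat 4.3.0, Cell Ranger 7.0.0, mm10 and bcl2fastq 2.20.0.422, with no role. Cells had been filtered before deposit: none had fewer than 500 genes or over 3.0% of UMIs from mitochondria. No cell was removed further and no doublet caller was run, beyond a comparison of the 2 hashtag classifications.

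Counts of cluster 5 cells were summed per hashtag where at least 20 cells were present (4 Cren, 3 Crep). Genes were kept with filterByExpr, scaled by TMM and tested with edgeR 4.0.16 in a robust quasi-likelihood fit, with Benjamini-Hochberg adjustment over all genes at 0.05. Interactions kept the hashtag as a block. CPM values use a hashtag's total over all genes. DESeq2 1.42.0 and limma 3.58.1 served as alternatives. Single measures were compared by exact permutation. The code was tested on simulated data. Genes were named by size of difference (20 at an average log2 CPM of at least 5), by ratio of mean CPM (20 higher and 15 lower than other cells, 10 and 10 against cluster 1, T cell receptor segments left out) and from lists. The cluster, its members and the lists were chosen with earlier results of these data known. Shares of cells carry 95% Wilson intervals for counting error only. Hashtags numbered alike in the groups had correlations across genes of 0.0065, 0.048 and 0.038 in their deviations. Those numbered unlike had correlations from -0.045 to 0.027. All were small, and they do not settle whether the numbers pair the hashtags. The block by number is an alternative only.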

Additional observations from a re-analysis of the deposited data

Results flagged for a closer look

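In 138 groups of 4 hashtags, 11 had a hashtag that stood apart from the other 3 by Dixon's test at 95%, which chance gives in about 1 of 20 groups. In Crep, hashtag 4, with 19 cells, was high for Zfp36l1 (376 CPM), Csrnp1 (53.7 CPM) and Cmss1 (14933 CPM) and at 0 for Gpr146. Crep hashtag 1 was at 0 for Uri1 and Tnfrsf25, and Crep hashtag 3 was low for Cyba (1017 CPM). In Cren, hashtag 2 was high for Nfkbia (1315 CPM), hashtag 4 for Pdcd1 (102 CPM) and hashtag 1 for Cd4 (1.37 CPM, 1 UMI), and hashtag 3 was low for Gpr146 (32.9 CPM).

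The difference between Crep and Cren itself differed between cluster 5 and other cells, by an interaction term, for 7 pairs of gene and comparison. Against cluster 1 the interaction was 0.95 for Klrc1, -0.62 for Zfp36l2, -0.77 for Bhlhe40 and -0.34 for Cmss1. Against all other cells it was -0.68 for Zfp36l2, -0.59 for Tnfaip3 and -0.48 for Gzmb. Over 8 alternatives Klrc1 passed in 6 and Tnfaip3 in 6, Zfp36l2 in 3 against cluster 1 and 7 against all other cells, Gzmb in 3, and Bhlhe40 and Cmss1 in 2 each.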

How the results depend on the processing

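The 48 genes called between the groups within cluster 5 became 29 with DESeq2, 92 with no count filter, 24 without cells with an Ifitm1 UMI, and between 20 and 115 when 1 hashtag was left out (20 without Crep 3, 25 without Crep 2, 115 without Cren 3). Other settings gave 44 to 65. With the replicate number as a block, as if the numbers paired the hashtags, 52 genes passed, 33 of the 48 among them, and Capg (1.25), Gzmb (0.74) and Cd8b1 (0.66) then passed too. The settings without Trbv19 cells, without Ifitm1 cells and with a mitochondrial share of 0.5 to 1.0% (65 genes) were chosen after seeing the data. Interaction calls against cluster 1 (4) became 0 with limma-voom and 0 to 8 when 1 hashtag was left out, and those against all other cells (3) became 0 and 1 to 17. Over 68 named gene results and their alternatives, 867 of 1126 values kept direction and call, 219 lost the call, 28 gained one and 12 changed sign; the causes were not tested.

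Values that changed sign were near 0 and had not passed. Cd8a (-0.01) was 0.0038 with RLE size factors, 0.027 with limma-voom, 0.041 with a minimum of 10 cells, 0.12 without Ifitm1 cells and between -0.14 and 0.084 with 1 hashtag left out. S1pr1 (0.04) was -0.071 without Trbv19 cells, -0.21 without Ifitm1 cells and between -0.15 and 0.18 with 1 hashtag left out. Klf2 (-0.08) was between -0.33 and 0.079, and the difference in median UMIs per cell (116) between -34.4 and 215, with 1 hashtag left out. Of the leading genes, 27 to 33 of 35 against all other cells and 16 to 19 of 20 against cluster 1 stayed among the first under each alternative.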
